A study of Mus musculus with 24 samples.

Results

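The genes of the lysosome, of the proton pump that acidifies it and of autophagy were followed through 24 RNA-seq libraries of 2 mouse cell lines. A fixed list of 50 gene symbols was looked up in the deposited table of read counts, and all 50 were among its 21669 genes. By role they were 25 hydrolases, 3 luminal cofactors, 7 membrane proteins, 10 subunits or partners of the vacuolar proton pump (V-ATPase) and 5 autophagy genes. K-Luc is a luciferase-expressing derivative of the KR158B glioma line, of C57BL/6 origin. RAW-Blue is a derivative of RAW 264.7 macrophages that carries a secreted phosphatase reporter for NF-κB and AP-1. Both stand for their cell type as single cultured lines. Each line was plated for a migration assay, left to adhere for 24 h and then treated, K-Luc for 17 to 19 h and RAW-Blue for 47 to 50 h. The SWNT/CpG group received single-walled carbon nanotubes dispersed in the oligonucleotide CpG-28 (10 µg/mL each). The CpG+SWNT/LP group received CpG-28 and, not joined to it, nanotubes dispersed in a lipid-PEG (10 µg/mL of each component). The SWNT/LP group received the lipid-PEG nanotubes alone and the CpG group CpG-28 alone, at the same concentrations, and the untreated group received water. An oligonucleotide lacking CpG was given to no group, so the CpG motif and DNA as such cannot be told apart. In K-Luc every treatment had 3 libraries and untreated cells had 2, while all RAW-Blue groups had 2. Whether replicates came from separate cultures is not in the labels. The p-values therefore measure only how far these samples vary, which may be technical variation.

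Lysosomes break down material that arrives by endocytosis or autophagy. Acid hydrolases such as the cathepsins, the glycosidases and the lipases do this work, small luminal proteins hand them their lipid substrates, and the V-ATPase pumps protons inward so that the enzymes can act. Autophagy brings in cytoplasm: receptors such as p62 (Sqstm1) tie cargo to lipidated LC3 on a growing membrane that later fuses with the lysosome. The basic helix-loop-helix factor TFEB and its relatives are known to activate many of these genes through a palindromic E-box in their promoters. In macrophages, lysosomes are also where internalised CpG DNA meets its receptor TLR9, which endolysosomal proteases such as the cathepsins trim into its active form.

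The libraries held 13318636 to 24130359 counts, of which the 50 genes took 1.72% to 2.11% in RAW-Blue and 1.02% to 1.42% in K-Luc. In RAW-Blue all 11 macrophage markers found in the table were above 1 CPM (counts scaled to a common library size) in at least 1 library, with a sum of 4630 to 5320 CPM. In K-Luc, 8 of the 11 (Ptprc, Itgam and Spi1 among them) stayed under 1 CPM in every library, the sum being 10.4 to 15.6 CPM. K-Luc had a glial marker sum of 479 to 588 CPM, but Gfap, Olig2 and S100b were under 1 CPM in every library. The 8 fibroblast and vessel markers summed to 5060 to 10700 CPM in K-Luc, but 4 of them (Cdh5, Dcn, Lum and Pecam1) were under 1 CPM in every library. The 3 K-Luc libraries of sequencing run 1 are all numbered replicate 1. Replicate 1 was the highest of its K-Luc group for 36 of 49 members with SWNT/CpG, 41 of 49 with CpG+SWNT/LP, 37 of 48 with SWNT/LP, 47 of 48 with CpG and 40 of 47 in untreated cells, counting members with a group mean of 1 CPM or more. Over all genes at that level the share was 39.4% to 47.9%. The K-Luc model holds a term for the run. That term was called for 11 of 49 members (22.4%), all lower in run 2. Over all 12420 genes it was called for 17.4%, with 1115 higher and 1040 lower in run 2. The CpG and SWNT/LP groups have no run 1 library, so the term does not remove the difference of their replicate 1. The 2 untreated RAW-Blue libraries differed more than any other pair of replicates, with a chi-square of 43.2 per degree of freedom against 1.95 to 14.5 elsewhere. In bulk RNA, fewer cells of a type and less RNA per cell cannot be told apart.

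Promoter sequence from RefSeq (GRCm38.p6) was matched by symbol for 42 of the 50 genes, from 250 bases before to 50 after the annotated start. The 8-base palindrome TCACGTGA, an extended E-box of the kind TFEB binds, occurred in 7 of the 42 (16.7%), against 304 of 27025 genes with such a sequence (1.12%). The motif was searched because it is known from promoters of such genes, so this excess is not a finding of these data. A palindrome reads alike on both strands, so 1 search covers both. The 7 windows are shown because the comparisons below can be read against them, with TCACGTGA in capitals and each sequence read 5′ to 3′ on the strand of its gene.
Ctsa (chr2:164833730-164833799, plus strand): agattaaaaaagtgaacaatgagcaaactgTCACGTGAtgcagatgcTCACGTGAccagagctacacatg
Ctsd (chr7:142387904-142387956, minus strand): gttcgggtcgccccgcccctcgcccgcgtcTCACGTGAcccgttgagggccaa
Gla (chrX:134601178-134601255, minus strand): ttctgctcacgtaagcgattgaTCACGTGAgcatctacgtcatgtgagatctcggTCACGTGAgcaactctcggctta
Cln3 (chr7:126583336-126583388, minus strand): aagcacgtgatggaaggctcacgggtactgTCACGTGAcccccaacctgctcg
Mcoln1 (chr8:3500443-3500495, plus strand): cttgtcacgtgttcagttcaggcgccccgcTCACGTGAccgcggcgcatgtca
Atp6v1a (chr16:44139369-44139421, minus strand): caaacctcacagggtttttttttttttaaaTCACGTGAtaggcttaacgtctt
Atp6v0d1 (chr8:105566046-105566098, minus strand): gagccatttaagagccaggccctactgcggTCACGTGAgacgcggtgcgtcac
Ctsa and Gla held the palindrome in 2 places each, the other 5 in 1. Counted from the annotated start, its first base lay at -13 and 5 in Ctsa, at -228 and -195 in Gla, at -99 in Ctsd, -122 in Cln3, -46 in Mcoln1, -132 in Atp6v1a and -4 in Atp6v0d1. The shorter core CACGTG, contained in every TCACGTGA, occurred in 12 of the 42 (28.6%), against 8.09% of all genes with a sequence. A match describes these letters in this window and does not show that a factor binds there.

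Without treatment, most hydrolases were higher in RAW-Blue and most autophagy genes higher in K-Luc. In the authors' RPKM, which allow for transcript length, cathepsin D (Ctsd), an aspartic protease, stood at 842 and 577 in untreated RAW-Blue cells, against 251 and 219 in untreated K-Luc cells. The cysteine protease cathepsin B (Ctsb) stood at 568 and 412 RPKM in RAW-Blue and 63.9 and 62.6 RPKM in K-Luc. Both were well above K-Luc in either RAW-Blue library. Cathepsin S (Ctss), which trims the MHC class II chaperone in antigen-presenting cells, had 131 and 129 RPKM in RAW-Blue and was listed at 0 in both untreated K-Luc libraries. Its counts there were 0 and 1. Cathepsin W (Ctsw), a papain-like protease known from cytotoxic lymphocytes, went the other way: it had 0 counts in all 10 RAW-Blue libraries, which allows up to 0.148 to 0.175 CPM per library (3 counts of its total, counting error only), and 32 and 63 counts in the untreated K-Luc libraries. The top of the order by mean RPKM was Ctsd, Ctsb, Lamp1, Ctsz and Psap in RAW-Blue, and Lamp1, Psap, Sqstm1, Ctsd and Ctsl in K-Luc. Neighbours in that order often overlapped: 282 and 235 RPKM for Psap, 248 and 236 for Sqstm1 and 251 and 219 for Ctsd in untreated K-Luc cells do not set these 3 apart.

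The difference between the lines was tested on the counts. Between untreated RAW-Blue and untreated K-Luc cells, edgeR's quasi-likelihood test called 31 of 50 members higher and 14 lower in RAW-Blue at an adjusted p under 0.05. The lines differ throughout, since 77.9% of all tested genes were called, 37% higher and 40.9% lower. Of 25 hydrolases, 18 were higher and 5 lower in RAW-Blue, with a median log2 ratio of 1.30 against -0.05 over all genes. Ctss is among the 18 and Ctsw among the 5. Each passed the count filter through 1 line only, so its call was close to fixed in advance. Of the 5 autophagy genes, 4 were lower in RAW-Blue. Wipi1, which binds the phospholipid of the early autophagosome, had 7.53 and 9.95 CPM in RAW-Blue and 65.4 and 62.7 CPM in K-Luc (log2 ratio -2.84 ± 0.14, adjusted p = 4.49e-15). Map1lc3b, encoding LC3B itself, had 38.6 and 35.5 CPM in RAW-Blue and 107 and 106 CPM in K-Luc (log2 ratio -1.51 ± 0.09, adjusted p = 1.01e-13). Tfeb was the member of that group that was higher in RAW-Blue, at 38.9 and 32.2 CPM, against 7.57 and 6.24 CPM in K-Luc (log2 ratio 2.48 ± 0.14, adjusted p = 3.49e-14). Atp6v0c, the proteolipid that forms the membrane ring of the pump, was listed at 0.97 and 1.63 CPM in RAW-Blue and 34.2 and 29.8 CPM in K-Luc. The annotation names 2 pseudogenes for Atp6v0c and 1 for Cd63, so reads may have been split or dropped in counting, and the levels of both genes are uncertain.

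In K-Luc cells, SWNT/CpG was followed by higher transcript levels across all 5 roles. Against untreated cells, 40 of the 49 tested members were higher and none was lower, while 43.1% of all tested genes were called, 21.8% higher and 21.3% lower. The median log2 fold change was 0.38 over the members and 0.01 over all genes. All 7 membrane proteins, all 5 autophagy genes and all 3 cofactors were called, with 18 of 24 hydrolases and 7 of 10 pump genes. The 9 members not called were Ctsb, Ctsc, Ctsf, Ctsh, Gla, Gusb, Atp6v1c1, Atp6v1h and Atp6v0c, and Ctss was too low to test. Summed over the 50 genes, levels were 14290, 13303 and 13061 CPM in SWNT/CpG cells and 11041 and 10079 CPM in untreated cells. The 2 ranges do not overlap. Lamp1, Psap, Sqstm1, Ctsd and Grn made up 42.8% of the sum with SWNT/CpG and 41.2% untreated.

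**Figure D1:**
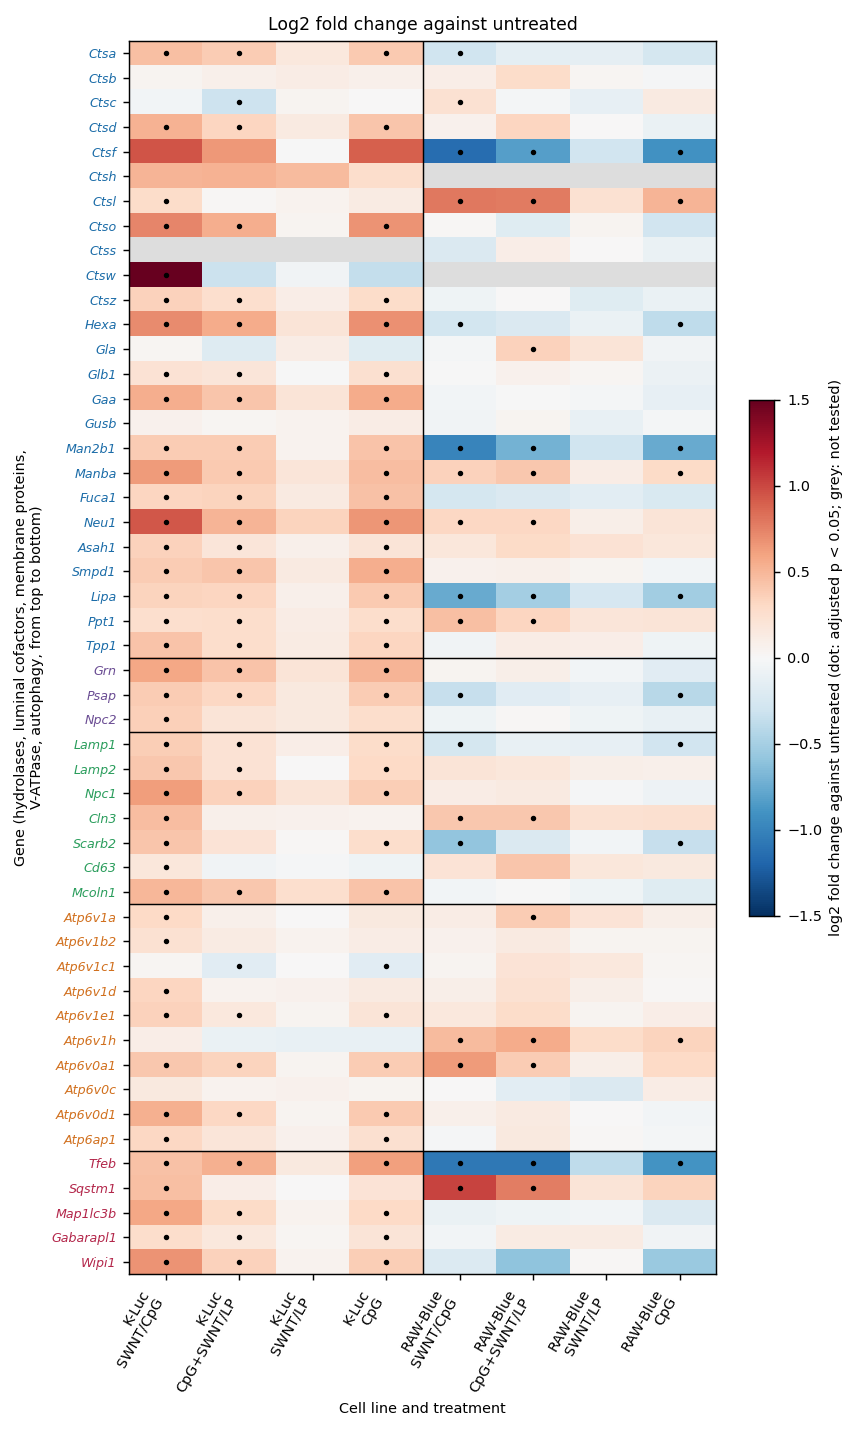
Log2 fold change of the 50 genes (rows, grouped by role) for each treatment against untreated cells of the same line (columns), with a dot where the adjusted p was under 0.05 and grey where a gene was not tested. The K-Luc columns with CpG are mostly red and the RAW-Blue columns mixed, and Ctsw in K-Luc SWNT/CpG cells, at 1.69, lies beyond the end of the colour scale.

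Among the hydrolases, Ctsw stood apart. It had 8.12, 8.85 and 8.9 CPM in SWNT/CpG cells and 2.4 and 2.79 CPM in untreated cells, from 110, 187 and 192 counts with SWNT/CpG and 32 and 63 counts untreated. No other K-Luc library reached 3 CPM: there were 1.64, 2.46 and 2.24 CPM with CpG+SWNT/LP, 2.37, 2.84 and 2.89 CPM with SWNT/LP and 2.22, 2.24 and 2.09 CPM with CpG. Its log2 fold change with SWNT/CpG was 1.69 ± 0.15 (adjusted p = 1.75e-07). The sialidase Neu1 had 66.0, 52.9 and 54.3 CPM with SWNT/CpG and 34.6 and 28.3 CPM in untreated cells (log2 fold change 0.93 ± 0.17, adjusted p = 0.000959), and cathepsin O (Ctso) 42.8, 37.0 and 31.8 CPM with SWNT/CpG and 25.7 and 20.7 CPM untreated (0.73 ± 0.11, adjusted p = 9.91e-05). Every SWNT/CpG library was above every untreated one for both genes. The abundant Ctsd had 1020, 936 and 924 CPM with SWNT/CpG and 727 and 637 CPM untreated (0.52 ± 0.09, adjusted p = 0.00039), again without overlap. Cathepsin L (Ctsl) had 820.5, 701 and 683 CPM with SWNT/CpG and 639 and 602 CPM untreated (0.27 ± 0.07, adjusted p = 0.00392). Ctsb, at 465, 455 and 447 CPM with SWNT/CpG and 449.9 and 442 CPM untreated, was the abundant hydrolase with no detected change (0.04 ± 0.07, adjusted p = 0.685).

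The luminal cofactors progranulin (Grn), whose protein regulates lysosomal enzymes, and prosaposin (Psap), the precursor of the saposins that present sphingolipids to hydrolases, both rose. Grn had 968, 883 and 901 CPM with SWNT/CpG and 698 and 563 CPM untreated (log2 fold change 0.59 ± 0.14, adjusted p = 0.00553). The log2 fold change was 0.38 ± 0.10 for Psap (adjusted p = 0.00794) and 0.36 ± 0.11 for the cholesterol carrier Npc2 (adjusted p = 0.0156). Among the membrane proteins, Npc1, which takes cholesterol from Npc2 and exports it, had 95.3, 86.5 and 86.9 CPM with SWNT/CpG and 63.0 and 55.5 CPM untreated (log2 fold change 0.63 ± 0.11, adjusted p = 0.000354). The lysosomal calcium channel Mcoln1 had 61.4, 54.4 and 55.1 CPM with SWNT/CpG and 39.9 and 41.0 CPM untreated (0.50 ± 0.09, adjusted p = 0.000213). Lamp1 and Lamp2, the main glycoproteins of the membrane, rose by 0.37 and 0.40 on the log2 scale (adjusted p = 0.000353 and 8.24e-06). None of these groups overlapped.

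The 10 pump genes had a median log2 fold change of 0.30 and the 5 autophagy genes 0.45. Atp6v0d1, a subunit of the membrane sector, had 240.5, 236 and 241 CPM with SWNT/CpG and 175 and 159 CPM untreated (log2 fold change 0.53 ± 0.08, adjusted p = 4.21e-05), and Atp6v0a1, of the same sector, a log2 fold change of 0.41 ± 0.07 (adjusted p = 0.000249). In the catalytic sector, Atp6v1e1 had a log2 fold change of 0.35 ± 0.05 (adjusted p = 8.66e-05). The autophagy genes were led by Wipi1, with 99.2, 104 and 102 CPM with SWNT/CpG and 65.4 and 62.7 CPM untreated (0.67 ± 0.07, adjusted p = 8.76e-07), and Map1lc3b, with 158, 165 and 155 CPM with SWNT/CpG and 107 and 106 CPM untreated (0.58 ± 0.06, adjusted p = 1.87e-06). Sqstm1 had 995, 993 and 932 CPM with SWNT/CpG and 736 and 703 CPM untreated (0.45 ± 0.08, adjusted p = 0.000363). In these 3 genes every SWNT/CpG library was above every untreated one. Tfeb itself, far less abundant, had 9.9, 9.41 and 8.11 CPM with SWNT/CpG and 7.57 and 6.24 CPM untreated (0.44 ± 0.13, adjusted p = 0.0111). Of the 7 genes with TCACGTGA in the promoter window, 6 were called higher and Gla was not (0.03 ± 0.10, adjusted p = 0.859), beside 40 of 49 over all members and 21.8% of all genes.

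When each of the 5 libraries was left out in turn, 26 of the 40 were called every time and all 40 kept their sign. Without untreated replicate 2, 12 of the 40 were lost, among them Tfeb, Grn, Psap, Npc2 and Cd63, which leaves 28.

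**Figure D2:**
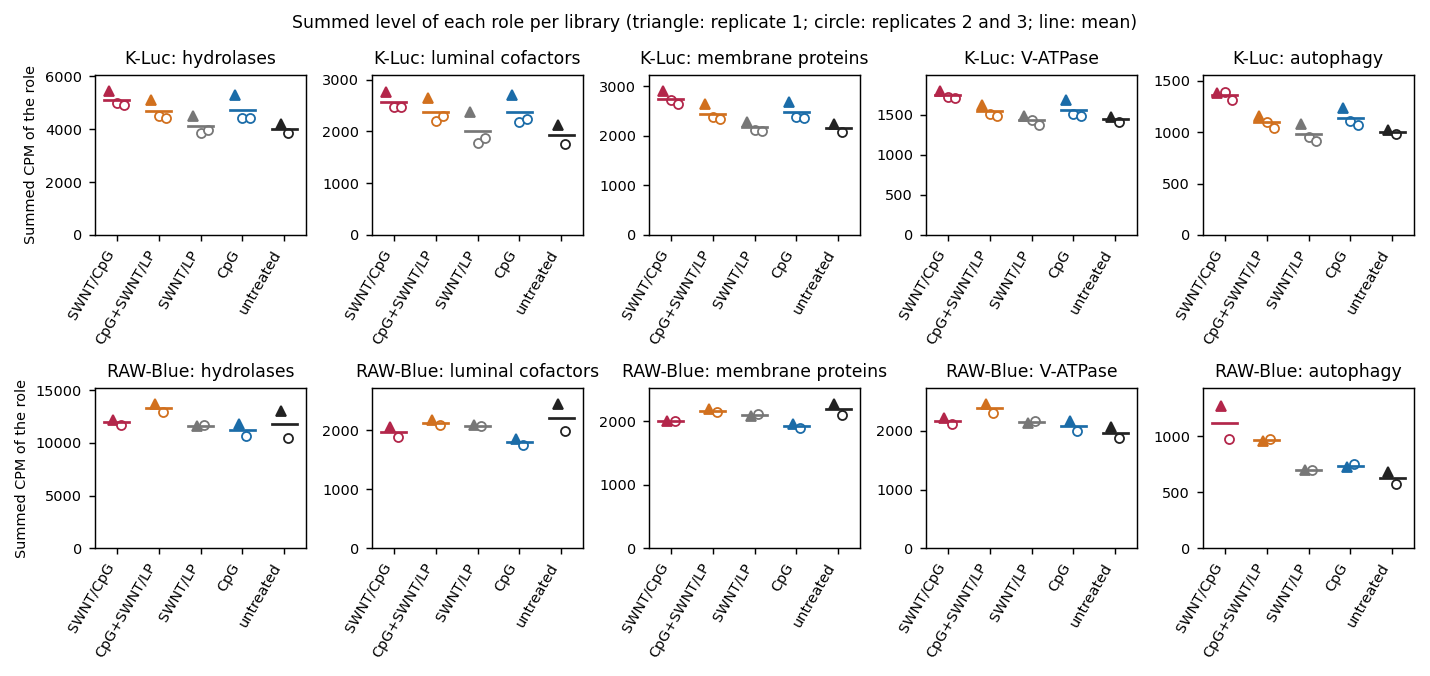
Summed level of each role in CPM (vertical axes, from 0) in every library, by treatment, for K-Luc (top) and RAW-Blue (bottom), with lines for group means and triangles for replicate 1. All K-Luc roles are highest on average with SWNT/CpG, replicate 1 is the highest library in most K-Luc groups, and the RAW-Blue autophagy sum, higher in both groups that had CpG with nanotubes, is mostly Sqstm1.

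Both other treatments with CpG were also followed by more higher than lower members in K-Luc cells. Against untreated cells CpG gave 31 of 49 members higher and 1 lower (36.2% of all genes called, 17.9% higher and 18.4% lower), and CpG+SWNT/LP gave 29 higher and 2 lower (33.9% of all genes, 16.1% higher and 17.8% lower). These comparisons share the untreated libraries with each other and with that of SWNT/CpG. The median log2 fold change over the members was 0.25 with CpG+SWNT/LP and 0.28 with CpG, against 0.01 over all genes in each. Ctso had 37.9, 31.1 and 30.6 CPM with CpG (log2 fold change 0.67 ± 0.12), and Hexa, a subunit of the enzyme that degrades the ganglioside GM2, had 272, 203 and 199 CPM with CpG and 175 and 140.4 CPM untreated (0.68 ± 0.16, adjusted p = 0.00578). Mcoln1 had 58.5, 50.2 and 49.3 CPM with CpG (0.43 ± 0.09, adjusted p = 0.00169) and Tfeb 10.9, 9.7 and 9.25 CPM (0.62 ± 0.13, adjusted p = 0.00194). Of the 24 hydrolases 16 were higher under each treatment, while of the 10 pump genes 3 were higher under CpG+SWNT/LP and 4 under CpG. Atp6v1c1, a stator subunit that holds the catalytic sector to the membrane sector, was lower with CpG+SWNT/LP, at 179, 182 and 182 CPM, and with CpG, at 190, 179.7 and 180.2 CPM, against 191 and 213 CPM in untreated cells (log2 fold change -0.17 ± 0.05 with CpG+SWNT/LP and -0.17 ± 0.05 with CpG). The other lower gene with CpG+SWNT/LP was cathepsin C (Ctsc, -0.31 ± 0.10, adjusted p = 0.0191).

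These 2 counts rest on single libraries. Without untreated replicate 2 they were 6 for CpG+SWNT/LP and 9 for CpG, and leaving out untreated replicate 1 gave 13 calls for CpG+SWNT/LP, as leaving out its own replicate 1 gave 14. With CpG+SWNT/LP, Ctsa, Ppt1, Mcoln1 and Atp6v0a1 were called whichever library was left out. With CpG, the 9 called whichever library was left out were Ctsa, Ctso, Fuca1, Ppt1, Smpd1, Tpp1, Lamp2, Mcoln1 and Atp6v0a1.

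The nanotubes in lipid-PEG gave no called member in K-Luc cells. In SWNT/LP against untreated cells, edgeR called 0 of 49 (0.129% of all genes), 3 had an unadjusted p under 0.05, and DESeq2 also called 0. The median log2 fold change was 0.066 over the members and -0.003 over all genes. Ctsd had 793, 650.2 and 672 CPM with SWNT/LP and 727 and 637 CPM untreated (log2 fold change 0.14 ± 0.10), and Sqstm1 774, 679 and 639 CPM with SWNT/LP and 736 and 703 CPM untreated (0.00 ± 0.09). For Sqstm1 the SWNT/LP libraries lay on both sides of the untreated ones. The interaction of CpG and SWNT/LP, that is, how far the co-treated cells departed from the sum of the separate log2 effects, was called for 0 of 49 members by edgeR, with 3 at an unadjusted p under 0.05 (0% of all genes). Its median was -0.129 over the members and -0.001 over all genes. With a term for the replicate number the median over the members was 0.003. A shift of the members as a set was not tested.

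SWNT/CpG was compared with CpG alone and with CpG and nanotubes given unjoined. The comparison with CpG also adds the nanotubes. That with CpG+SWNT/LP also changes the coat of the nanotubes, since SWNT/CpG cells received no lipid-PEG. No group received lipid-PEG alone, so joining cannot be told apart from these differences. SWNT/CpG against CpG gave 10 of 49 members higher and 0 lower (14.9% of all genes called, 7.29% higher and 7.58% lower), and SWNT/CpG against CpG+SWNT/LP gave 15 higher and 0 lower (17.7% of all genes, 8.54% higher and 9.12% lower). Pump and autophagy genes made up 9 of the 15 and 7 of the 10. Against CpG+SWNT/LP, 6 of 10 pump genes and 3 of 5 autophagy genes were higher, with 2 of 7 membrane proteins, 4 of 24 hydrolases and no cofactor. Against CpG, the pump had 4 of 10 and autophagy 3 of 5, with 2 of 7 membrane proteins, 1 of 24 hydrolases and no cofactor. Median log2 differences against CpG+SWNT/LP were 0.288 (autophagy), 0.21 (membrane proteins), 0.189 (pump), 0.155 (cofactors) and 0.133 (hydrolases). Against CpG they were 0.248, 0.143, 0.144, 0.078 and 0.05 in the same order. Membrane proteins thus shifted about as much as pump genes, with fewer calls. Whether roles differ was not tested.

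**Figure D3:**
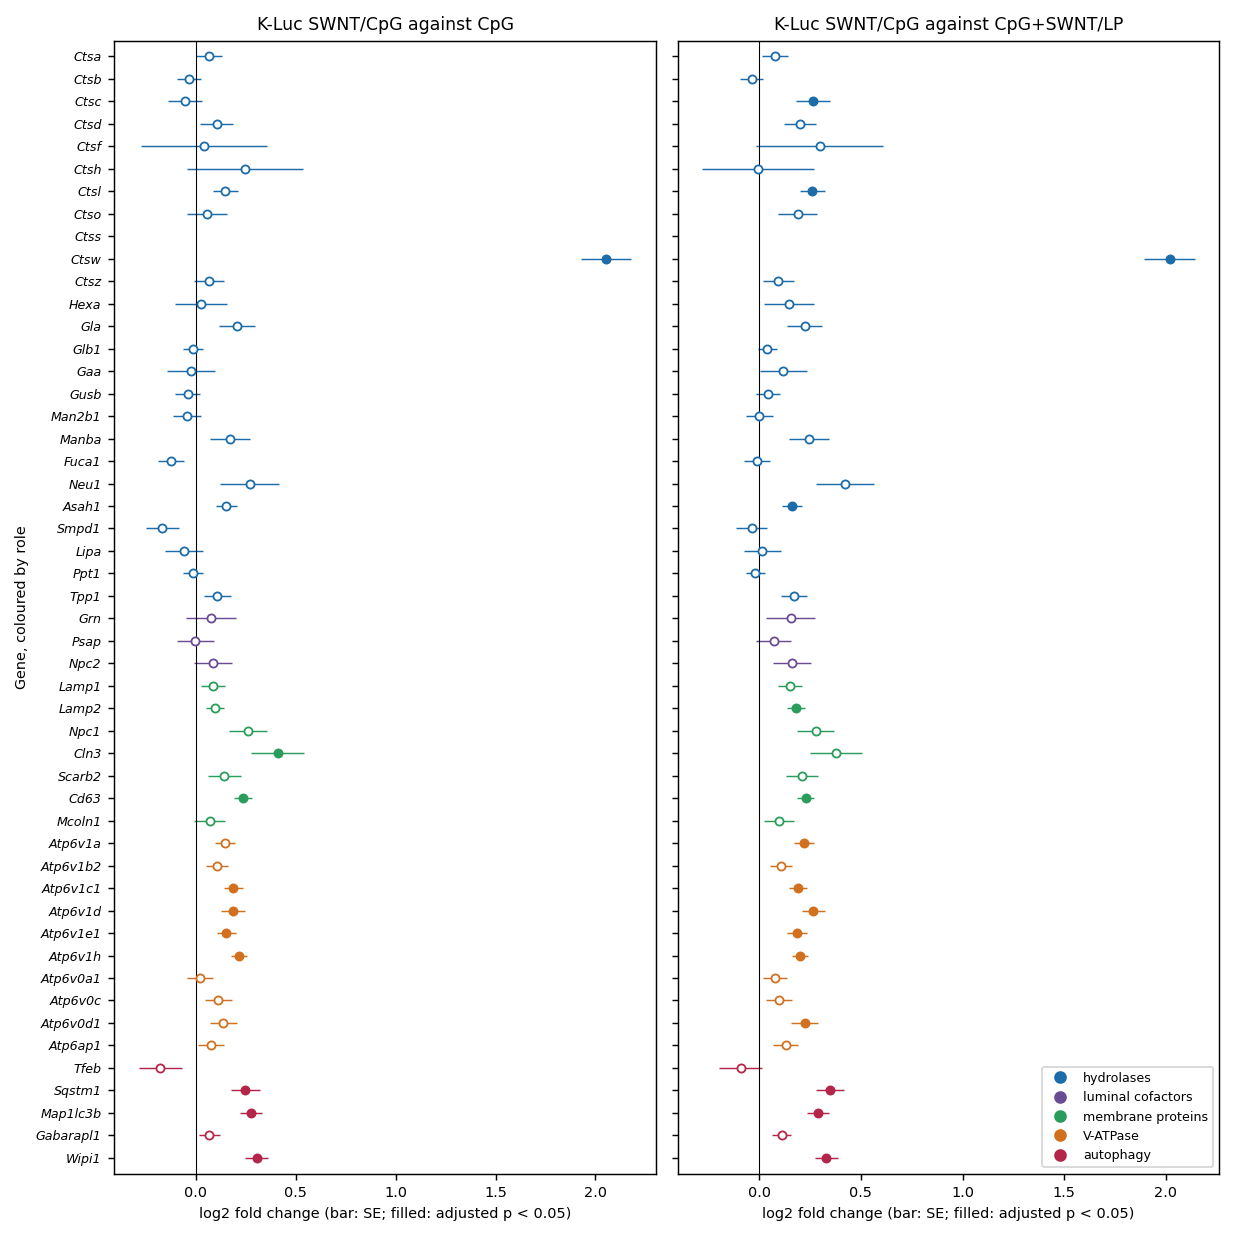
Log2 fold change (horizontal axis) with its standard error for each gene, SWNT/CpG against CpG (left) and against CpG+SWNT/LP (right) in K-Luc cells, filled where the adjusted p was under 0.05. Ctsw lies near 2 in both panels, and the pump subunits and 3 autophagy genes lie to the right of 0 with small errors.

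Ctsw again differed most, with a log2 difference of 2.02 ± 0.12 against CpG+SWNT/LP (adjusted p = 2.64e-08) and 2.05 ± 0.13 against CpG (adjusted p = 3.22e-08). Every SWNT/CpG library was above 8 CPM and every other K-Luc library below 3. Atp6v1h, the regulatory subunit of the catalytic sector, had 128, 126 and 126 CPM with SWNT/CpG, 109, 114 and 107 with CpG+SWNT/LP, 111, 106 and 109.6 with CpG and 115 and 119.6 in untreated cells. It thus lay above the other CpG groups (log2 difference 0.20 ± 0.04, adjusted p = 0.00174 against CpG+SWNT/LP and 0.22 ± 0.04, adjusted p = 0.00159 against CpG) while its difference from untreated cells was not called (0.10 ± 0.05, adjusted p = 0.0723). Atp6v1c1 had 206, 209.6 and 204 CPM with SWNT/CpG, close to its untreated level and above both other CpG groups (0.19 ± 0.05 against CpG+SWNT/LP and 0.19 ± 0.05 against CpG). Atp6v1d, of the central stalk, had 136, 122 and 124 CPM with SWNT/CpG, 123, 101 and 95.9 with CpG+SWNT/LP and 117, 103 and 99.5 with CpG (0.27 ± 0.06, adjusted p = 0.00349 against CpG+SWNT/LP).

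Of the autophagy genes, Wipi1, Map1lc3b and Sqstm1 were higher in both comparisons. Wipi1 had 99.2, 104 and 102 CPM with SWNT/CpG, 83.3, 77.8 and 81.8 with CpG+SWNT/LP and 83.4, 79.0 and 83.4 with CpG (log2 difference 0.33 ± 0.06, adjusted p = 0.000621 against CpG+SWNT/LP and 0.31 ± 0.06, adjusted p = 0.00177 against CpG). Map1lc3b had 158, 165 and 155 CPM with SWNT/CpG, 127, 134 and 130.3 with CpG+SWNT/LP and 143, 127 and 128 with CpG (0.29 ± 0.05, adjusted p = 0.00106 against CpG+SWNT/LP and 0.28 ± 0.06, adjusted p = 0.0024 against CpG). Sqstm1 had 823, 768 and 706 CPM with CpG+SWNT/LP and 879, 788 and 739 CPM with CpG, all below the 3 SWNT/CpG libraries (0.35 ± 0.07, adjusted p = 0.00261 against CpG+SWNT/LP and 0.25 ± 0.07, adjusted p = 0.0317 against CpG). Tfeb had no called difference (-0.09 ± 0.10, adjusted p = 0.618 against CpG+SWNT/LP and -0.18 ± 0.11, adjusted p = 0.317 against CpG). Among the membrane proteins, the tetraspanin Cd63, a marker of late endosomes and exosomes, had 237, 238 and 219 CPM with SWNT/CpG, 198, 196 and 199 with CpG+SWNT/LP and 199.5, 194 and 191 with CpG (0.23 ± 0.04, adjusted p = 0.000993 against CpG+SWNT/LP). Ctsl was higher than with CpG+SWNT/LP (0.26 ± 0.06, adjusted p = 0.00552), and its difference from CpG was not called (0.15 ± 0.06, adjusted p = 0.131).

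Against CpG, Ctsw, Cd63, Atp6v1h, Wipi1 and Map1lc3b were called whichever library was left out. Against CpG+SWNT/LP, 11 of the 15 were, and the count stayed between 12 and 13. The count against CpG fell to 5 without SWNT/CpG replicate 2 and to 6 without CpG replicate 2 or 3. It was 24 without CpG replicate 1, the library in which 47 of 48 members were highest. Calls over all genes against CpG were 1847 in the full data, 1091 without SWNT/CpG replicate 2 and 1861 without CpG replicate 1. With replicates 2 and 3 alone, all of run 2 and a choice made after seeing the data, the counts were 31 against CpG and 28 against CpG+SWNT/LP. Calls over all genes were then 2636 against CpG and 2671 against CpG+SWNT/LP, where the full data gave 2194. A term for the replicate number gave 35 and 34 members, with 3610 and 4009 calls over all genes. Against SWNT/LP, SWNT/CpG gave 40 of 49 members higher and 0 lower (41.7% of all genes, 21.5% higher and 20.2% lower), with Ctsw (1.74 ± 0.12), Ctsf (0.95 ± 0.36) and Ctso (0.69 ± 0.10) at the top. Ctsf lay near 1 CPM, and its groups overlapped.

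In RAW-Blue cells the same treatment split the genes in both directions. SWNT/CpG against untreated cells gave 9 of 48 tested members higher and 9 lower (23.2% of all genes called, 12.8% higher and 10.4% lower). The median log2 fold change was 0.01 over the members and 0.00 over all genes. The called hydrolases divided into 5 higher and 5 lower, and the 2 called pump genes were higher. Ctsh and Ctsw were too low to test. The cofactor Psap was lower, 1 membrane protein was higher and 2 lower, and of the autophagy genes 1 rose and 1 fell. Summed over the 50 genes, levels were 19765 and 18678 CPM with SWNT/CpG and 20464 and 17036 CPM untreated, so the sums overlapped. Ctsb, Ctsd, Lamp1, Psap and Ctsa made up 51.3% of the untreated sum, so it mostly describes a few abundant genes.

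**Figure D4:**
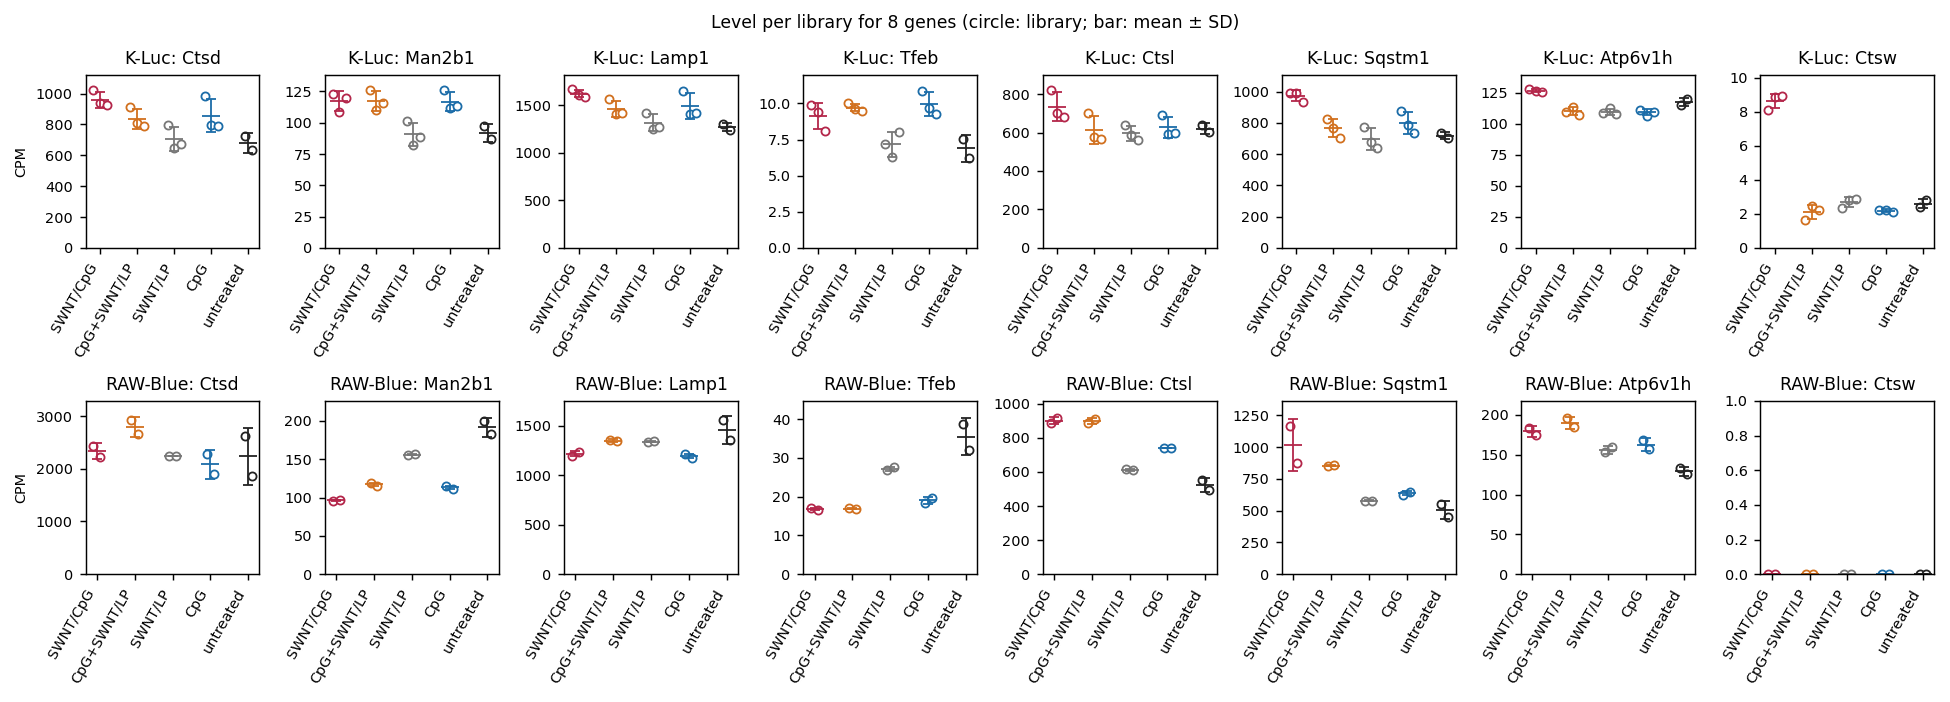
Level in CPM (vertical axes, from 0) of 8 genes in every library of K-Luc (top) and RAW-Blue (bottom), by treatment, with mean ± SD (n = 3, or 2 for untreated K-Luc and all RAW-Blue groups). Man2b1 and Tfeb are higher in the K-Luc groups with CpG and lower in the RAW-Blue groups with CpG, Ctsl and Sqstm1 are highest with SWNT/CpG or CpG+SWNT/LP in RAW-Blue, and Ctsw is raised with SWNT/CpG in K-Luc.

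The lower hydrolases included Man2b1, the lysosomal alpha-mannosidase, with 95.8 and 96.6 CPM with SWNT/CpG and 200.3 and 183 CPM untreated (log2 fold change -0.99 ± 0.07, adjusted p = 1.8e-05). Cathepsin F (Ctsf) had 7.4 and 6.25 CPM with SWNT/CpG and 15.9 and 14.3 CPM untreated (-1.15 ± 0.15, adjusted p = 0.000593). The acid lipase Lipa, which hydrolyses cholesteryl esters, had 342 and 355 CPM with SWNT/CpG and 606 and 569 CPM untreated (-0.75 ± 0.07, adjusted p = 9.18e-05). For all 3 the groups were well separated. The higher hydrolases were led by Ctsl, with 886 and 914 CPM with SWNT/CpG and 551 and 492 CPM untreated (0.79 ± 0.07, adjusted p = 6.94e-05), and Ppt1, which removes palmitate from proteins, with 368 and 386 CPM with SWNT/CpG and 279 and 272 CPM untreated (0.45 ± 0.08, adjusted p = 0.00317). Manba, a beta-mannosidase, had a log2 fold change of 0.35 ± 0.07, adjusted p = 0.0072. The most abundant enzymes could not be told from untreated: Ctsb had 4181 and 3879 CPM with SWNT/CpG and 4287 and 3220 CPM untreated (0.10 ± 0.13, adjusted p = 0.604), and Ctsd 2438 and 2222 CPM with SWNT/CpG and 2614 and 1855 CPM untreated (0.06 ± 0.15, adjusted p = 0.805). In both, the SWNT/CpG libraries lay between the 2 untreated ones. Ctss had 241 and 249 CPM with SWNT/CpG and 282 and 287 CPM untreated (-0.22 ± 0.07, adjusted p = 0.0558).

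Of the other roles, Tfeb and Sqstm1 had the largest changes. Tfeb had 17.1 and 16.6 CPM with SWNT/CpG and 38.9 and 32.2 CPM untreated (log2 fold change -1.07 ± 0.11, adjusted p = 0.000113). Sqstm1 had 1165 and 874 CPM with SWNT/CpG and 553 and 454 CPM untreated (1.02 ± 0.13, adjusted p = 0.000548). The SWNT/CpG libraries of Sqstm1 lay far apart, yet both were above the untreated ones. LC3B was not called (-0.10 ± 0.09). Psap had 1008 and 924 CPM with SWNT/CpG and 1346 and 1100 CPM untreated (-0.34 ± 0.10, adjusted p = 0.0339), with every SWNT/CpG library below the untreated ones, while Grn was not called (0.05 ± 0.10). Among membrane proteins, Scarb2, the receptor that carries glucocerebrosidase to the lysosome, had 51.7 and 53.8 CPM with SWNT/CpG and 82.7 and 77.0 CPM untreated (-0.60 ± 0.09, adjusted p = 0.00161). Cln3 rose, with 93.9 and 89.3 CPM with SWNT/CpG and 68.5 and 70.2 CPM untreated (0.40 ± 0.07, adjusted p = 0.00298), and Lamp1 fell (-0.26 ± 0.08, adjusted p = 0.0343). Lamp2 (0.19 ± 0.10) and Mcoln1 (-0.05 ± 0.08) were not called. The pump genes Atp6v0a1 and Atp6v1h were higher, Atp6v0a1 at 180 and 165 CPM with SWNT/CpG and 121 and 101 CPM untreated (0.63 ± 0.10, adjusted p = 0.00183) and Atp6v1h at 184 and 175 CPM with SWNT/CpG and 133 and 126 CPM untreated (0.47 ± 0.08, adjusted p = 0.00171). Atp6v0d1 was not (0.08 ± 0.11). Of the 7 genes with TCACGTGA, Cln3 was higher, Ctsa was lower (-0.30 ± 0.08, adjusted p = 0.0232) and the other 5 were not called, beside 9 higher and 9 lower of 48 over all members.

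Leaving out each library in turn, 11 of the 18 were called every time: Ctsl, Ppt1, Cln3, Atp6v1h, Atp6v0a1 and Sqstm1 higher, and Ctsf, Man2b1, Lipa, Scarb2 and Tfeb lower. Without SWNT/CpG replicate 1 the count was 11 (6 higher and 5 lower). Without untreated replicate 1 it was 26 (17 higher and 9 lower), and without untreated replicate 2 it was 27 (11 higher and 16 lower).

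CpG without nanotubes gave 3 of 48 members higher and 8 lower in RAW-Blue (10.8% of all genes called, 5.18% higher and 5.6% lower), and CpG+SWNT/LP gave 10 higher and 4 lower (20.3% of all genes, 10.1% in each direction). They share the untreated libraries with SWNT/CpG. Man2b1 had 119 and 116 CPM with CpG+SWNT/LP, 155 and 156 with SWNT/LP and 115 and 112 with CpG, against 200.3 and 183 CPM untreated (log2 fold change -0.71 ± 0.07, adjusted p = 0.000169 with CpG+SWNT/LP and -0.76 ± 0.07, adjusted p = 0.000233 with CpG). Tfeb had 17.0 and 16.8 CPM with CpG+SWNT/LP, 26.8 and 27.6 with SWNT/LP and 18.4 and 19.7 with CpG (-1.07 ± 0.11, adjusted p = 0.00017 with CpG+SWNT/LP and -0.90 ± 0.11, adjusted p = 0.000829 with CpG). In both genes the SWNT/LP libraries stood between the untreated libraries and those with CpG. Ctsl had 886 and 912 CPM with CpG+SWNT/LP and 742 and 739.7 with CpG (0.79 ± 0.07, adjusted p = 0.000106 with CpG+SWNT/LP and 0.51 ± 0.07, adjusted p = 0.00227 with CpG). Sqstm1 had 851 and 861 CPM with CpG+SWNT/LP, which was called (0.77 ± 0.13, adjusted p = 0.00348), and 625 and 647 CPM with CpG, which was not (0.34 ± 0.13, adjusted p = 0.126). With CpG the other falls were in Ctsf (-0.91 ± 0.15), Lipa (-0.52 ± 0.07), Hexa (-0.38 ± 0.09), Psap (-0.42 ± 0.10), Lamp1 (-0.29 ± 0.08) and Scarb2 (-0.35 ± 0.09). With CpG+SWNT/LP the pump had 3 of 10 genes higher, Atp6v1h (0.56 ± 0.08), Atp6v0a1 (0.38 ± 0.10) and the catalytic subunit Atp6v1a (0.38 ± 0.10).

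The untreated libraries set much of these counts. For CpG, leaving out untreated replicate 1 gave 18 calls (9 higher and 9 lower) and leaving out untreated replicate 2 gave 26 (6 higher and 20 lower), so the balance of the directions rests on these libraries, while leaving out CpG replicate 1 gave 6 and CpG replicate 2 gave 5. For CpG+SWNT/LP, leaving out untreated replicate 1 gave 27 calls (22 higher and 5 lower) and untreated replicate 2 gave 24 (13 higher and 11 lower). With CpG, Ctsl higher and Ctsf, Lipa, Man2b1 and Tfeb lower were called whichever library was left out. With only the 4 libraries of a comparison in the model, the counts were 8 for SWNT/CpG, 4 for CpG+SWNT/LP and 1 for CpG.

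SWNT/LP gave 0 of 48 called members in RAW-Blue by edgeR (0.478% of all genes), with 7 at an unadjusted p under 0.05, and DESeq2 also called 0. Leaving out untreated replicate 2 gave 18 calls (5 higher and 13 lower) and leaving out untreated replicate 1 gave 4 (3 higher and 1 lower). Man2b1 (-0.30 ± 0.07, adjusted p = 0.124) and Tfeb (-0.38 ± 0.10, adjusted p = 0.186) thus had no called difference from untreated cells. The interaction of CpG and SWNT/LP was called for 0 of 48 members by edgeR (0% of all genes), with 4 at an unadjusted p under 0.05, and for 20 without untreated replicate 2. The median interaction in the full data was 0.152 over the members and -0.007 over all genes. SWNT/CpG gave few differences from the other CpG groups, which also differ from it in nanotubes or lipid-PEG. Against CpG, edgeR called 1 of 48 members (0.842% of all genes), Sqstm1 (0.68 ± 0.13, adjusted p = 0.0494). Against CpG+SWNT/LP, edgeR called 0 of 48 (0.825% of all genes), with 9 at an unadjusted p under 0.05, and DESeq2 called 1. The Sqstm1 call was lost without either CpG library and without SWNT/CpG replicate 1. Against SWNT/LP, 4 of 48 were higher and 5 lower (10.3% of all genes, 6.3% higher and 4% lower), of which Ctsl (0.56 ± 0.07), Sqstm1 (0.82 ± 0.13), Man2b1 (-0.69 ± 0.07), Lipa (-0.50 ± 0.07) and Tfeb (-0.69 ± 0.11) were called with each library left out.

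The difference between the lines was tested directly, as the log2 response of RAW-Blue minus that of K-Luc in a model of all 24 libraries. The lines also differ in treatment time and plating, which cannot be told apart from the cell type here. For SWNT/CpG, 3 of 50 members had a more positive and 24 a more negative response in RAW-Blue (25.4% of all genes called, 14.4% more positive and 11.1% more negative). The 50 include Ctss, too low to test within K-Luc, and Ctsh and Ctsw, too low to test within RAW-Blue. A difference in response cannot be judged for these genes. The median difference was -0.42 over the members and 0.04 over all genes. All 3 cofactors and 4 of 5 autophagy genes were more negative in RAW-Blue, with 11 of 25 hydrolases and 4 of 7 membrane proteins, but 2 of 10 pump genes. Atp6v1h, Ctsl and Sqstm1 were the 3 that responded more positively in RAW-Blue. Ctsl kept this call whichever library was left out, while Atp6v1h and Sqstm1 lost it in some of these fits.

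**Figure D5:**
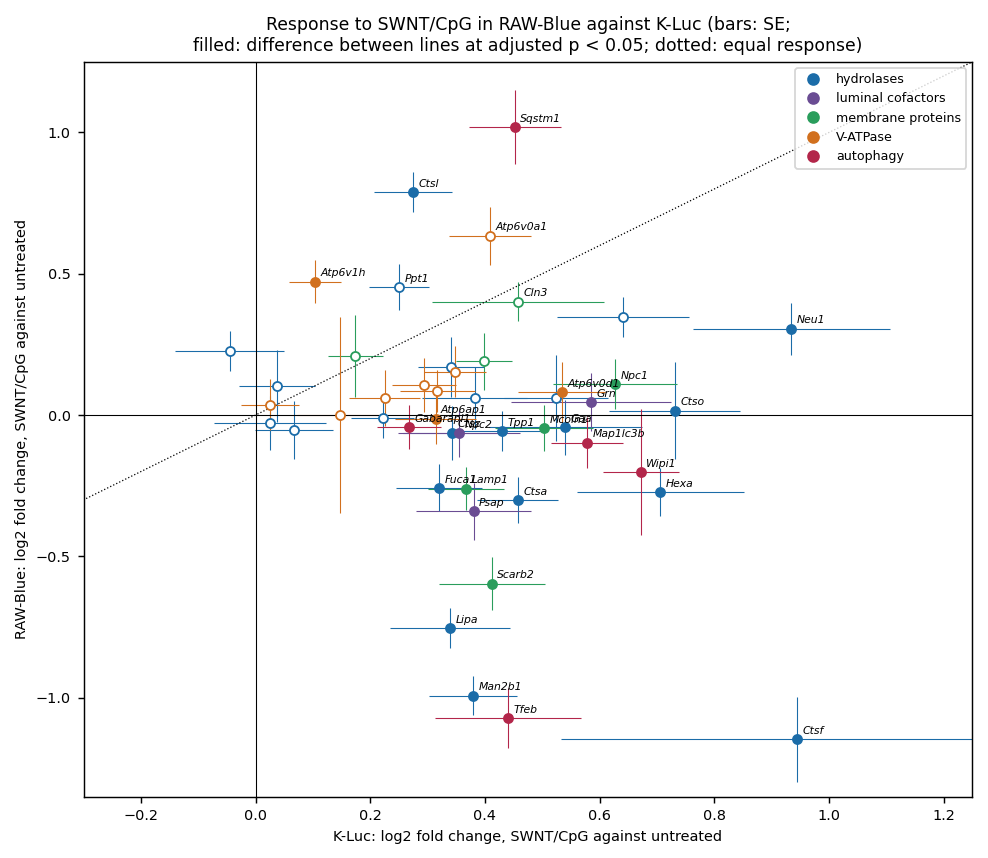
Log2 fold change with SWNT/CpG against untreated cells in RAW-Blue (vertical axis) and K-Luc (horizontal axis) for the 47 genes tested in both lines, with standard errors and filled points where the difference between the lines had an adjusted p under 0.05. Nearly all points lie right of 0, while in RAW-Blue they spread from Ctsf and Tfeb below -1 to Sqstm1 at about 1.

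Counting the separate calls, 8 genes were higher in K-Luc SWNT/CpG cells and lower in RAW-Blue SWNT/CpG cells: Ctsa, Hexa, Lipa, Man2b1, Psap, Lamp1, Scarb2 and Tfeb. All 8 also differed between the lines in the direct test in every fit that left out 1 library. The separate calls were less stable. In RAW-Blue those of Ctsa, Hexa, Psap and Lamp1 were lost without either SWNT/CpG library, and in K-Luc those of Lipa, Psap and Tfeb were lost without untreated replicate 2. Man2b1 and Scarb2 kept both calls whichever library was left out. Tfeb had the log2 fold changes -1.07 ± 0.11 in RAW-Blue and 0.44 ± 0.13 in K-Luc (difference -1.52 ± 0.17, adjusted p = 8.79e-07). Man2b1 had -0.99 ± 0.07 in RAW-Blue and 0.38 ± 0.08 in K-Luc (difference -1.37 ± 0.11, adjusted p = 1.05e-08). Lipa had -0.75 ± 0.07 in RAW-Blue and 0.34 ± 0.10 in K-Luc (difference -1.10 ± 0.14, adjusted p = 2.75e-06), and Scarb2 -0.60 ± 0.09 in RAW-Blue and 0.41 ± 0.09 in K-Luc (difference -1.01 ± 0.14, adjusted p = 1.11e-05). Higher in both lines were Ctsl, Manba, Neu1, Ppt1, Cln3, Atp6v0a1 and Sqstm1. Of these, Ctsl rose more in RAW-Blue (difference 0.51 ± 0.11, adjusted p = 0.00108), as did Sqstm1 (0.56 ± 0.16, adjusted p = 0.011), while Neu1 rose less there (-0.63 ± 0.21, adjusted p = 0.036). The largest difference was that of Ctsf (-2.09 ± 0.42, adjusted p = 0.000723), which in K-Luc had only 1.85, 1.94 and 0.973 CPM with SWNT/CpG and 0.974 and 0.708 CPM untreated. Wipi1 (-0.88 ± 0.19, adjusted p = 0.00147) and Map1lc3b (-0.68 ± 0.11, adjusted p = 9.26e-05) were higher in K-Luc and without a call in RAW-Blue.

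The response to CpG without nanotubes also differed between the lines: 2 of 50 members were more positive and 21 more negative in RAW-Blue (21.9% of all genes called, 11.3% more positive and 10.6% more negative), with a median of -0.39 over the members and 0.00 over all genes. Both comparisons use the untreated libraries and the same 50 members, Ctss, Ctsh and Ctsw among them. Ctsf (-1.83 ± 0.43), Tfeb (-1.53 ± 0.17), Man2b1 (-1.20 ± 0.12) and Hexa (-1.08 ± 0.19) had the most negative differences, and Atp6v1h (0.43 ± 0.09) and Ctsl (0.36 ± 0.11) were the 2 positive ones. The calls of Ctsf and Ctsl were lost in some fits that left out a library, while those of Tfeb, Man2b1, Hexa and Atp6v1h were kept. Without K-Luc untreated replicate 2 the count was 15 in each of these comparisons, against 27 for SWNT/CpG and 23 for CpG in the full data.

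A further list held 85 related genes of the lysosome, the pump, autophagy and their regulation. In K-Luc SWNT/CpG cells 49 of 79 tested were higher than untreated and none lower (21.8% of all genes higher and 21.3% lower), with a median log2 fold change of 0.22. Among them were the sorting receptor Sort1 (0.86 ± 0.23) and the cystine transporter Ctns (0.75 ± 0.15). By group, 23 of 33 lysosomal genes, 6 of 9 pump genes, 15 of 27 autophagy genes and 5 of 10 regulators were higher. Against CpG+SWNT/LP, 17 of 79 were higher and 0 lower (8.54% of all genes higher and 9.12% lower), 6 of them among the 9 pump genes, with Atp6v1g1 at 0.68 ± 0.07, Ostm1, a partner of the lysosomal chloride exchanger, at 0.40 ± 0.06 and Atp6v0e2 at 0.34 ± 0.09. In RAW-Blue SWNT/CpG cells 6 of 80 were higher and 19 lower (12.8% of all genes higher and 10.4% lower), with 15 of the falls among 34 lysosomal genes. The sulfatase Arsb (-1.12 ± 0.07), the asparaginyl protease Lgmn (-0.91 ± 0.08) and the membrane protein Laptm5 (-0.82 ± 0.08) fell most. The tartrate-resistant phosphatase Acp5, an osteoclast marker, rose (0.93 ± 0.12). With CpG+SWNT/LP, 10 of 80 were higher and 14 lower (10.1% of all genes in each direction), and of the 34 lysosomal genes 4 were higher and 12 lower. Arsb was again lower (-0.89 ± 0.07), while Acp5 had a log2 fold change of 1.98 ± 0.12, and the osteoclast pump subunit Atp6v0d2 (1.63 ± 0.26) and Ctsk (0.90 ± 0.21) were also higher. With CpG, 3 of 80 were higher and 11 lower (5.18% of all genes higher and 5.6% lower), all 11 of them lysosomal, and Acp5 had 1.57 ± 0.12. SWNT/CpG against CpG+SWNT/LP in RAW-Blue gave 0 of 80 higher and 3 lower, 2 lysosomal genes and 1 pump gene (0.825% of all genes called). Against CpG it gave 0 higher and 2 lower, each lysosomal (0.842% of all genes called).

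Several members share exons with a neighbour on the other strand in GENCODE vM21 (GRCm38), and the strand setting of the authors' counting is not given in the sources used here. Cln3 and Apobr share up to 442 bases, and Apobr reached 249 CPM in RAW-Blue and 15.4 CPM in K-Luc. Sqstm1 and Mrnip share up to 580 bases, Ctsb and Fdft1 774, and Ctsa and Pltp 311, with Pltp at up to 144 CPM in RAW-Blue. Ctsl overlaps the antisense gene Gm47123 (977 bases) and, on its own strand, the pseudogene Gm49230 (395 bases), neither of which has a row in the count table. Also on the same strand, Ctsd shares up to 227 bases with Gm49369 and Glb1 up to 165 bases with Tmppe, which reached 48.3 CPM in RAW-Blue. Reads of the opposite-strand pairs cannot be told apart where the counting ignored strand. For the same-strand pairs, counting by strand would not separate them.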

How the data were processed

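Poly(A) RNA was sequenced from a stranded mRNA library kit, per the labels' protocols. The submitters' processing notes name TopHat2 2.0.14, HTSeq 0.6.0 and mouse build mm9. For annotation and strand setting, the sources used here give nothing. The deposited table holds whole-number counts per gene, and the authors also deposited RPKM, to 1 decimal, used only to set levels of different genes and untreated lines side by side.

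Counts were tested with edgeR 4.0.16 in R 4.3.3 (TMM scaling, filterByExpr with a minimum count of 10 and a minimum total of 15, robust quasi-likelihood F test, Benjamini-Hochberg adjustment over all genes tested, threshold 0.05). K-Luc was fitted with group and sequencing run (14 libraries, 12420 genes, 8 residual degrees of freedom, biological coefficient of variation 0.0513). RAW-Blue was fitted with group (10 libraries, 11514 genes, 5 degrees of freedom, 0.0859). Differences between lines used all 24 libraries (13350 genes, 13 degrees of freedom). Of the members, 49 were tested in K-Luc and 48 in RAW-Blue, where Ctsh and Ctsw were too low. CPM were computed on TMM-scaled library sizes of each line. An error after a log2 value is a standard error, computed as its size over the square root of F. The model was tested on simulated data. Depth was 13318636 to 24130359 counts per library.

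Members and lists were chosen with earlier results of these data known. Genes named are, in each role and comparison, the called members with the largest changes, up to 3 in each direction, with Lamp1, Lamp2, Ctsb, Ctsd, Ctsl, Ctss, Ctsw, Grn, Mcoln1, Tfeb, Sqstm1, Map1lc3b, Atp6v0c and Atp6v0d1 always eligible. Others named, such as Ctsa, stand for a count or a sequence shown and were chosen after their values were seen. The alternatives were a replicate block, DESeq2 1.42.0, DESeq2 scaling within edgeR, all genes without a count filter, no run term, run 2 alone, only the compared groups, each library left out and, added after seeing the data, replicates 2 and 3 only. Promoter windows were read from RefSeq (GRCm38.p6). No coordinate of mm9 was used.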

Additional observations from a re-analysis of the deposited data

Results flagged for a closer look

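The differences below are between the lines: the log2 response of RAW-Blue minus that of K-Luc, called by the direct test. For SWNT/CpG 27 members and for CpG 23 members differed. Both responses use the same untreated libraries of each line.

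With SWNT/CpG the difference was -2.09 for Ctsf, -1.37 for Man2b1, -1.10 for Lipa and 0.51 for Ctsl among the hydrolases. It was -0.73 for Psap, -0.54 for Grn and -0.42 for Npc2. Among membrane proteins it was -1.01 for Scarb2, -0.63 for Lamp1 and -0.55 for Mcoln1. In the pump, Atp6v1h had 0.36, Atp6v0d1 -0.46 and Atp6ap1, an accessory protein, -0.33. The autophagy genes had -1.52 for Tfeb, -0.88 for Wipi1, -0.68 for Map1lc3b and 0.56 for Sqstm1.

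With CpG the difference was -1.83 for Ctsf, -1.20 for Man2b1, -1.08 for Hexa and 0.36 for Ctsl. It was -0.82 for Psap and -0.70 for Grn. The membrane proteins had -0.64 for Mcoln1, -0.63 for Scarb2 and -0.59 for Lamp1. The pump genes had 0.43 for Atp6v1h and -0.45 for Atp6v0d1, and the autophagy genes -1.53 for Tfeb, -0.94 for Wipi1 and -0.54 for Map1lc3b.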

How the results depend on the processing

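Counts of called members are given here, each against the count in the report. No named gene changed sign while called under any alternative run. Leaving out 1 library at a time gave 9 to 34 calls for K-Luc CpG against untreated (32 in the report), 6 to 23 for CpG+SWNT/LP (31), 28 to 41 for SWNT/CpG (40), 5 to 24 for SWNT/CpG against CpG (10), 29 to 41 against SWNT/LP (40) and 12 to 13 against CpG+SWNT/LP (15). In RAW-Blue it gave 5 to 26 for CpG (11), 0 to 18 for SWNT/LP (0), 10 to 27 for CpG+SWNT/LP (14), 11 to 27 for SWNT/CpG (18), 0 to 1 for SWNT/CpG against CpG (1), 6 to 7 against SWNT/LP (9) and 0 to 20 for the interaction (0). Between lines it gave 15 to 33 for SWNT/CpG (27), 15 to 31 for CpG (23) and 39 to 47 for untreated cells (45). Where this left 1 library in a group, that library was assumed to vary like the others.

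Without the run term, K-Luc gave 18 calls for CpG, 14 for CpG+SWNT/LP and 8 for SWNT/CpG against CpG+SWNT/LP. With run 2 alone it gave 19, 9 and, for SWNT/CpG against CpG, 6. With replicates 2 and 3 only, chosen after seeing the data, SWNT/CpG gave 31 calls against CpG and 28 against CpG+SWNT/LP. With only the compared groups, K-Luc gave 16 for CpG and 34 for SWNT/CpG against CpG+SWNT/LP. RAW-Blue then gave 1 for CpG, 4 for CpG+SWNT/LP, 8 for SWNT/CpG, and for SWNT/CpG 6 against CpG, 23 against SWNT/LP and 8 against CpG+SWNT/LP. In RAW-Blue, SWNT/CpG against CpG+SWNT/LP gave 1 call with DESeq2 and 2 with no filter on low counts, and SWNT/CpG against CpG gave 0 with DESeq2 size factors in edgeR. The causes were not tested. No fit of the compared groups alone was made for the interactions or the differences between lines.

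Same-numbered libraries did not deviate together in every pair (correlations from -0.0337 to 0.507 in K-Luc and from -0.099 to 0.181 in RAW-Blue). In K-Luc their median correlation was 0.202, against -0.0939 for pairs with different numbers. Levels were first centred within each group, which ties the 2 kinds of pair together: where 1 is positive, the other tends to be negative. In RAW-Blue, with 2 libraries per group, the medians of 0.0231 and -0.0231 mirror each other by construction and give no comparison. The reported models did not take the numbers as pairing, so their counts do not allow for what same-numbered K-Luc libraries share. With the replicate block, K-Luc gave 35 calls for SWNT/CpG against CpG and 34 against CpG+SWNT/LP, and the other counts stayed within 1.5 times. With 2 or 3 libraries in a group, small differences in members of low count such as Ctsf, Ctsw and Tfeb are at the limit of the depth.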
